A study of Mus musculus with 6 samples.

Results

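The imprinted growth genes described here are the 10 genes H19, Meg3, Cdkn1c, Grb10, Zim1, Dlk1, Mest, Peg3, Plagl1 and Ndn, taken by symbol from the 41605 genes counted in every library. Of these, 5 are known as maternally expressed in mouse (H19, Meg3, Cdkn1c, Grb10 and Zim1) and 5 as paternally expressed (Dlk1, Mest, Peg3, Plagl1 and Ndn). Mouse sciatic nerve was taken 1 day (P1) or 60 days (P60) after birth, with 3 independent runs on the 10x Chromium platform per age, each from a separate biological sample. All mice carried a P0Cre transgene (P0Cre-/+), which drives Cre in Schwann cells, together with ReYFP Tg/+, the yellow reporter that Cre switches on, and βAct-DsRed Tg/+, a red reporter in all cells, on the C57bl/6J background. Each suspension pooled male and female animals in equal parts, so litters and single animals cannot be separated. DsRed-positive cells were sorted from both ages, and at P1 cells positive for both reporters were also partly removed in the sort, so the number of P1 Schwann cells was set by the gate. The question addressed was where in the nerve each of these genes was expressed at birth and what remained of it in the adult.

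Imprinted genes are transcribed from the copy inherited from only 1 parent, a state kept by DNA methylation laid down in the egg or the sperm. Many of them act on growth before and soon after birth, with paternally expressed genes often promoting growth and maternally expressed genes often restraining it, and many are shut down in most organs as growth slows. The parental origin of a transcript was not measured, since all animals were of 1 inbred background, and the words maternal and paternal are used below only as the known class of each gene. Among the maternal genes, H19 and Meg3 are long noncoding RNAs, Cdkn1c encodes the cyclin-dependent kinase inhibitor p57Kip2, Grb10 encodes an adaptor that damps signalling of the insulin and IGF receptors, and Zim1 encodes a zinc-finger protein. Among the paternal genes, Dlk1 encodes a transmembrane relative of the Notch ligands, Mest an enzyme of the alpha/beta hydrolase fold, Peg3 and Plagl1 (Zac1) zinc-finger proteins, and Ndn the MAGE-family protein necdin. Peripheral nerve holds fibroblastic cells in 3 layers: the endoneurium among the axons, the perineurium around each fascicle and the epineurium outside it.

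In the GRCm38 assembly with the GENCODE M21 annotation, the maternal genes lie at chr7:142575529-142578143 (H19, minus strand), chr12:109541001-109571726 (Meg3, plus strand), chr7:143458339-143461050 (Cdkn1c, minus strand), chr11:11930508-12038683 (Grb10, minus strand) and chr7:6671269-6696450 (Zim1, minus strand). The paternal genes lie at chr12:109452823-109463336 (Dlk1, plus strand), chr6:30723547-30748465 (Mest, plus strand), chr7:6703892-6730431 (Peg3, minus strand), chr10:13060504-13131694 (Plagl1, plus strand) and chr7:62346569-62350262 (Ndn, plus strand). Zim1 and Peg3 are neighbours with 7.44 kb between them, and Dlk1 and Meg3 are neighbours with 77.7 kb between them, so that each pair joins a maternal and a paternal gene. H19 and Cdkn1c lie 880 kb apart in a further cluster on chromosome 7. Copg2, an antisense neighbour, overlaps Mest. Whether the counting used the strand is not given in the sources used here, and Copg2 stood at 20.4 ± 0.415 CPM (counts per 1000000 UMIs of the class) in P1 fibroblasts, far below Mest.

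The promoters of these neighbouring pairs are shown because the members of each pair are compared side by side below. Of the 10 genes, 8 had promoter entries in RefSeq (GRCm38.p6; 12 windows of 300 bases, from 250 before to 50 after a start), and the first window of each of the 4 paired genes is printed with its CpG sites, the bases on which the methylation of imprinting is carried, in capitals. The windows lie at chr7:6696383-6696682 (Zim1, minus strand), chr7:6730370-6730669 (Peg3, minus strand), chr12:109452573-109452872 (Dlk1, plus strand) and chr12:109540746-109541045 (Meg3, plus strand).
Zim1: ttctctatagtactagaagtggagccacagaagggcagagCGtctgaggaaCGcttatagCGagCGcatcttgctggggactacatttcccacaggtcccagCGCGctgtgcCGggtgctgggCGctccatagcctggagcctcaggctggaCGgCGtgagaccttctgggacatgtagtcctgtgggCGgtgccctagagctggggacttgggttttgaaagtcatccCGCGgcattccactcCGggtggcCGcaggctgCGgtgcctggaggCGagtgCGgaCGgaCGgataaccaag
Peg3: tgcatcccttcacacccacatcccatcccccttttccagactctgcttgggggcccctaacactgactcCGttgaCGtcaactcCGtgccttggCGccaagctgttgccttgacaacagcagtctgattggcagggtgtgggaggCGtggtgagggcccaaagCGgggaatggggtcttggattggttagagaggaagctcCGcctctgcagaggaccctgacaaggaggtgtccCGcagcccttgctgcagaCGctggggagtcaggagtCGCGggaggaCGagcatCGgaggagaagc
Dlk1: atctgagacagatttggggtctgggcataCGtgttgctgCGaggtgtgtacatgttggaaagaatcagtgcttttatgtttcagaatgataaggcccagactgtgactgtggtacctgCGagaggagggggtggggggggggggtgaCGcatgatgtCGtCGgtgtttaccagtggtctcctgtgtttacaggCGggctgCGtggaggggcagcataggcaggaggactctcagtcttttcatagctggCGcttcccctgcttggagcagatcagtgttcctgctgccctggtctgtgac
Meg3: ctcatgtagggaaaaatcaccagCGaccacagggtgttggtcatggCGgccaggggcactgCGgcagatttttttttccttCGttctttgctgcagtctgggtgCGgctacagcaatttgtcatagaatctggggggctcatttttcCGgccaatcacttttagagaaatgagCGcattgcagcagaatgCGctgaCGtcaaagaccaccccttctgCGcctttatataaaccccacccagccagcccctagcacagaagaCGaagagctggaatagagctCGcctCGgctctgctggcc
These windows hold 20 CpG sites (Zim1), 13 (Peg3), 9 (Dlk1) and 13 (Meg3). The median over all 32851 promoter windows of the same length was 7 CpG sites, and 11 of the 12 windows of the imprinted genes lay above it. The window below it was a further one of Meg3, not printed here, with 1 CpG site. Mest windows starting at 30737800 and 30737803 nearly coincide and hold 17 CpG sites each, so the 12 are not independent. The palindrome GGGGCCCC, which reads the same on both strands, was found in the Peg3 window only among these 12, and 1.08% of all windows hold it. Methylation was not measured here.

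H19, Mest and Meg3 are also host genes of microRNAs, and the mature sequences of their best-known products are given from RefSeq (GRCm38.p6) because the levels of the host transcripts are described below. The seed (bases 2 to 8), which pairs with target messages, is in capitals.
mmu-miR-675-5p (in H19): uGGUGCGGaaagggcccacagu
mmu-miR-675-3p (in H19): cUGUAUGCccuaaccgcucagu
mmu-miR-335-5p (in Mest): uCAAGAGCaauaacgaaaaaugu
mmu-miR-335-3p (in Mest): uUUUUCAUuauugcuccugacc
mmu-miR-770-5p (in Meg3): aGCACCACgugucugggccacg
mmu-miR-770-3p (in Meg3): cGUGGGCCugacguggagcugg
These 6 seeds all differ from each other. The mature microRNAs themselves were not measured by this assay, which counts polyadenylated transcripts.

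After a filter of 500 to 5000 genes per cell, 11735 of 11827 barcodes were kept at P1 and 12602 of 12683 at P60. Library totals ran from 26685231 to 30334608 UMIs (unique molecular identifiers, 1 per captured RNA molecule) at P1 and from 20203440 to 26480736 at P60. P60 replicate 3 stood apart: its log2 CPM over genes correlated at 0.975 to 0.976 with the other P60 libraries, against 0.993 to 0.995 for the other pairs of 1 age, and 16.2% of its cells had more than 10% mitochondrial counts. Cells were clustered without the imprinted genes among the variable genes and were named from marker lists as Schwann cells (3552 at P1 and 419 at P60), fibroblasts (5115 and 7854), endothelial cells (725 and 1803), mural cells, that is pericytes and vascular smooth muscle (599 and 849), and immune cells (1047 and 1387). The fibroblasts include endoneurial fibroblasts (1302 and 860), perineurial cells (883 and 2458) and epineurial fibroblasts (2326 and 4536). The names are given by markers only and mean cells resembling the class. The P1 perineurial name rested on 3 perineurial markers, the fewest allowed, against 9 and 6 in the P60 perineurial clusters. Of the P1 epineurial fibroblasts, 1161 formed a cluster led by Sfrp4 and Agtr2. Its name rested on 3 epineurial markers against 1 perineurial marker, the smallest lead allowed. With imprinted genes kept in the clustering, the cluster with Sfrp4 and Agtr2 took no layer name. The paper calls its own P1 layer assignments tentative. At P1, 604 dividing fibroblasts took no layer name and 697 cells no class name, and 290 P60 cells with endothelial and mural markers together were left out of the classes. A sum of 6 fibroblast markers (Pdgfra, Col1a1, Col1a2, Col3a1, Dcn and Lum) gave a measure of fibroblast RNA in the other classes. At P1 it reached 20.3% to 21.2% of the fibroblast sum in Schwann cells, 5.58% to 7.16% in endothelial cells, 7.30% to 10.6% in mural cells and 6.13% to 8.52% in immune cells, and at P60 17.5% to 34.1%, 5.06% to 5.74%, 5.91% to 8.5% and 6.67% to 7.11%. All 6 markers had UMIs in each of these classes at both ages. In P60 Schwann cells the highest single marker stood at 51.4% of its fibroblast level, and 3 of the 10 imprinted genes stood above that share of theirs. Leaving out cells with 10 or more UMIs of Dcn from the non-fibroblast classes was one of the alternatives tried. Of 24164 distinct barcodes, 344 occurred in more than 1 library, and none was removed.

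At P1 the 10 imprinted genes together made up 2.32% ± 0.0634 of all UMIs of fibroblasts (SD, n = 3 libraries), and at P60 they made up 0.200% ± 0.00499. The epineurial fibroblasts held the largest P1 share, 3.25% ± 0.0585, ahead of endoneurial fibroblasts with 1.94% ± 0.0341 and perineurial cells with 1.697% ± 0.0324. By P60 the order of the layers had turned, with 0.360% ± 0.0120 in endoneurial fibroblasts, 0.211% ± 0.00188 in epineurial fibroblasts and 0.155% ± 0.0112 in perineurial cells. Outside the fibroblasts the P1 share was 0.658% ± 0.0584 in mural cells, 0.395% ± 0.0238 in endothelial cells, 0.390% ± 0.0192 in Schwann cells and 0.121% ± 0.0333 in immune cells. At P60 the same classes held 0.126% ± 0.0451, 0.0300% ± 0.00167, 0.109% ± 0.0169 and 0.0169% ± 0.00331. In P1 fibroblasts the paternal genes took 1.07% ± 0.0185 against 1.25% ± 0.0479 for the maternal genes. In P1 Schwann cells the shares were 0.0686% ± 0.00137 paternal and 0.322% ± 0.0201 maternal. In P60 fibroblasts the maternal genes took 0.168% ± 0.00330 and the paternal genes 0.0324% ± 0.00172.

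**Figure D1:**
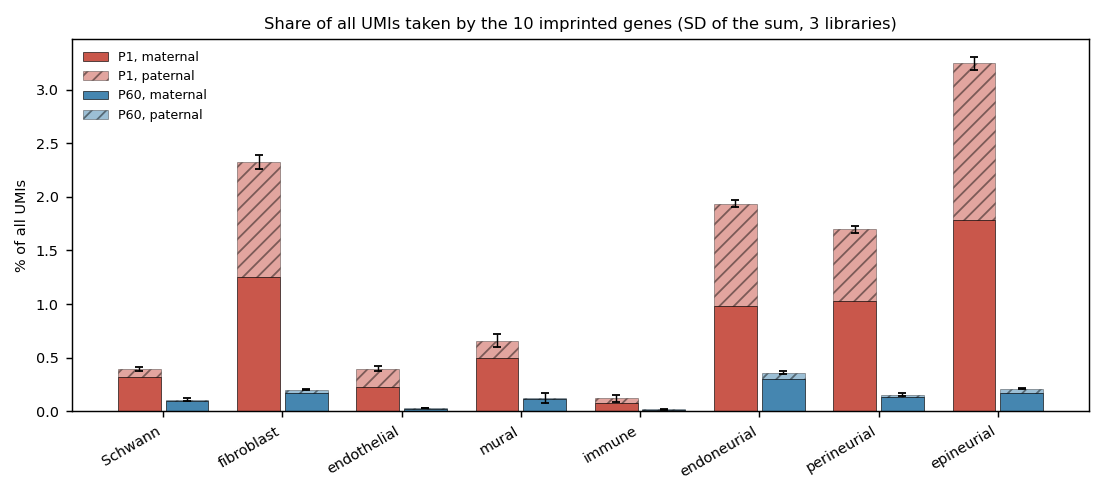
Share of all UMIs (%, y axis) taken by the 10 imprinted genes in the 5 cell classes and the 3 fibroblast layers (x axis) at P1 and P60; solid parts are maternal genes, hatched parts paternal genes, and error bars the SD of the sum over 3 libraries. The bar of P1 epineurial fibroblasts reaches 3.25% and no P60 bar passes 0.360%.

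UMI counts were summed per library and class and the ages compared with edgeR's quasi-likelihood test, with Benjamini-Hochberg adjustment over all genes tested in the class and a threshold of 0.05; fold changes below are P60 against P1 on the log2 scale. In fibroblasts all 10 imprinted genes fell, where 28.7% of all genes tested fell. In Schwann cells 9 of 10 fell (all genes 18.8%), in endothelial cells 9 of the 9 that passed the filter on low counts (19.1%), in mural cells 9 of the 9 that passed (15.6%) and in immune cells 8 of 10 (16.9%). Within the layers, 9 of 10 fell in endoneurial fibroblasts (22.4%), 10 in epineurial fibroblasts (23.3%) and 10 in perineurial cells (26.4%). None rose in any class or layer by this test. The gene left out by the filter in endothelial and in mural cells was Zim1. The filter keeps a gene that is high enough in the libraries of only 1 age. Zim1 was kept and counted as fallen in Schwann and immune cells, where it had 2 and 1 P60 UMIs. Mest, also counted as fallen, had 2 P60 UMIs in mural cells, 9 in Schwann cells and 12 in immune cells. Dlk1 stood at 2.59 P60 CPM in Schwann cells, 1.63 in immune cells and 1.22 in endothelial cells. A gene kept through its P1 libraries alone can only come out as lower at P60. How many members were kept in this way was not counted, so the counts above may in part be set by the filter. The median change of the tested members in fibroblasts was -3.94, against 0.04 over all genes tested. A count without a model was made over the genes that passed the filter. Every P60 library lay below every P1 library for 10 members in fibroblasts (all genes 33.9%) and 9 in Schwann cells (25.6%). In endothelial cells (26.7%) and mural cells (28.0%) this held for 9 of the 9 that passed, and in immune cells (29.3%) for 9 of 10. Zim1, left out in endothelial and mural cells, was there also lower in every P60 than in every P1 library (6 and 1 P60 UMIs). Every P60 library also lay below every P1 library for all 10 in endoneurial (31.7%), epineurial (28.9%) and perineurial cells (31.5%). The classes of 1 age come from the same 3 libraries, so these counts are not separate tests, and age cannot be told apart from the runs in which each age was processed. In Schwann cells the count was 6 when cells over 10% mitochondrial counts were left out and also 6 with another random seed of the clustering, with Meg3, Zim1 and Peg3 no longer called in either. The changes of these 3 were then -0.34, -1.42 and -0.57 without those cells and -0.25, -1.64 and -0.03 with the other seed.

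**Figure D2:**
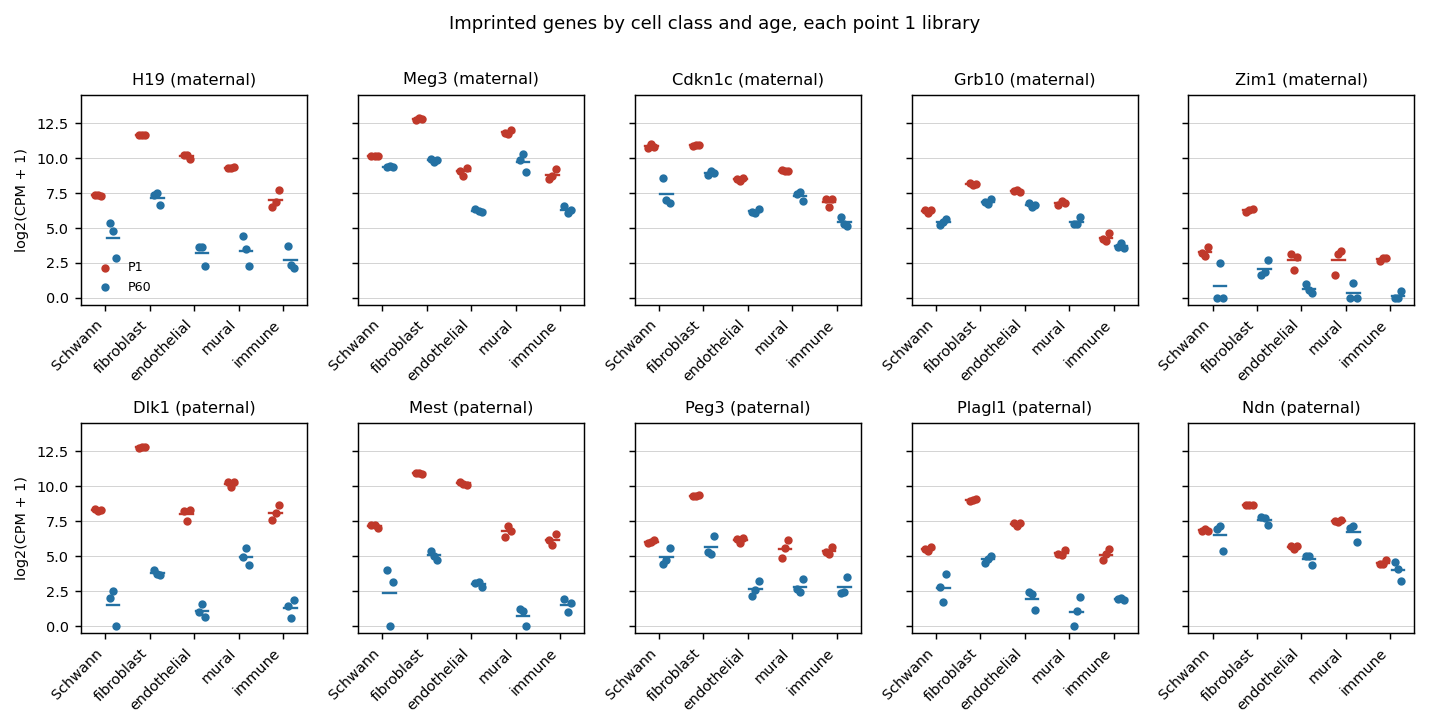
Level of each gene, log2(CPM + 1) on the y axis, in the 5 cell classes (x axis) at P1 (red) and P60 (blue); each point is 1 library and each line the mean of 3. All 10 genes have their highest P1 mean in fibroblasts, and the blue points lie below the red ones in nearly every class.

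At P1 the 10 genes also differed between the fibroblast layers, 10 of 10 in a joint test (all genes 67.0%). Epineurial fibroblasts were above endoneurial fibroblasts for 9 of 10 genes (all genes 30.1%) and below them for Peg3 alone (all genes 29.5%). With DESeq2 the Zim1 call of this comparison was lost (0.28, adjusted p = 0.0539), and 4281 in place of 7072 genes were called. They were above perineurial cells for all 10 (all genes 23.7% higher and 23.6% lower, or 1890 genes higher and 3903 lower without TMM scaling, where the 10 genes stayed higher). Perineurial cells were below endoneurial fibroblasts for 7 genes (all genes 20.8%) and above them for Cdkn1c (all genes 21.4%), while H19 and Ndn did not pass the test. The layers are clusters of the same cells and libraries, made without these genes but with genes that may vary with them, so the p-values describe these clusters rather than samples set apart in advance. With a normalization total of 100000 in place of 10000 UMIs per cell before clustering, the perineurial difference from endoneurial fibroblasts turned from -0.09 to 0.19 for Meg3 (adjusted p = 1.05e-09) and from -0.12 to 0.056 for Grb10 (adjusted p = 0.267), and H19 (0.23, adjusted p = 2.50e-10) and Ndn (0.21, adjusted p = 3.98e-05) passed the test with the perineurial level higher.

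**Figure D3:**
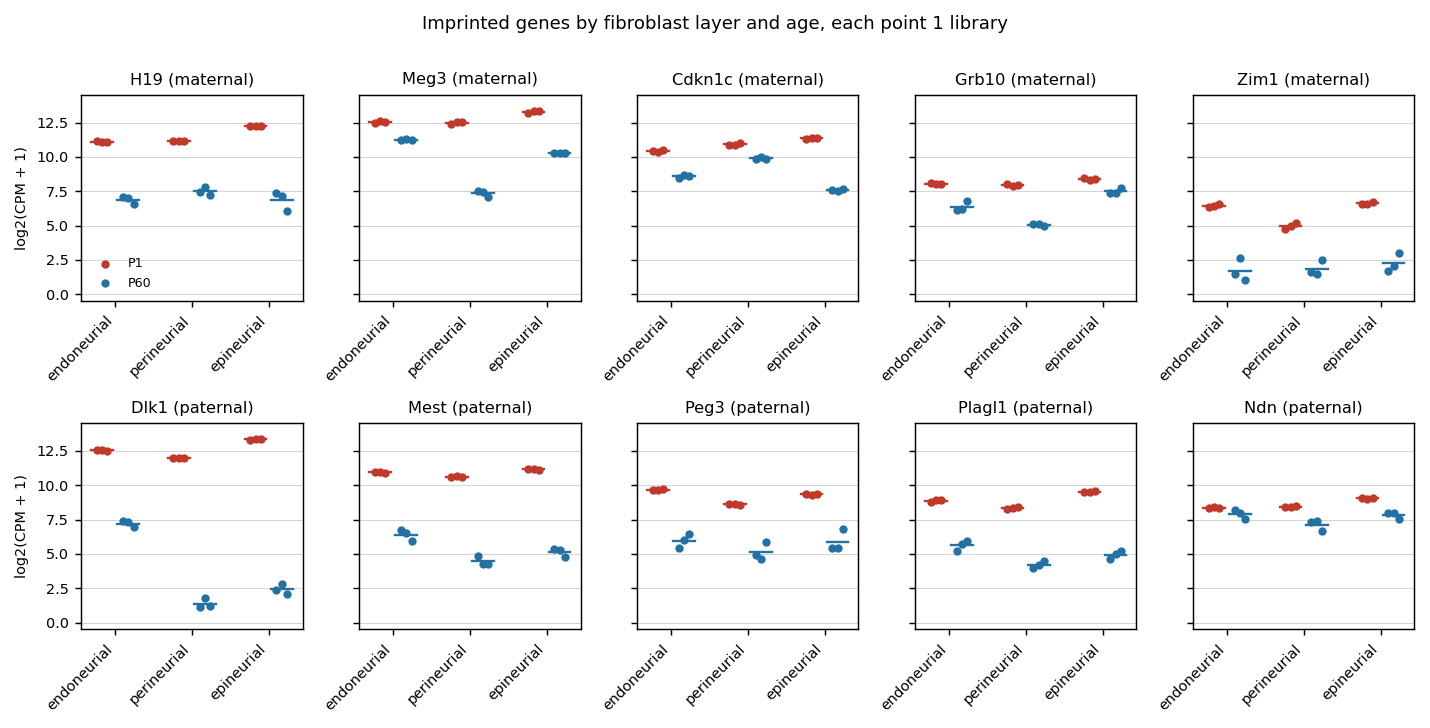
Level of each gene, log2(CPM + 1) on the y axis, in the 3 fibroblast layers (x axis) at P1 (red) and P60 (blue); each point is 1 library and each line the mean of 3. The epineurial mean is the highest at P1 for every gene but Peg3, and at P60 Dlk1 keeps 148 CPM in endoneurial fibroblasts against 4.42 in epineurial fibroblasts.

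H19, the noncoding RNA that hosts miR-675, was carried at P1 by fibroblasts and, at a lower level, by endothelial cells. The 3 P1 libraries held 3148, 3233 and 3149 CPM in fibroblasts and the 3 P60 libraries 163, 179 and 99.5. Every P60 library was far below every P1 library, and H19 fell by 4.42 ± 0.22 on the log2 scale (SE, adjusted p = 4.51e-07). P1 endothelial cells held 1203, 1189.7 and 955 CPM, which is 35.1% of the fibroblast mean, where the fibroblast markers stood at no more than 8.26% each. Mural cells held 638 ± 23.999 CPM (SD, n = 3 libraries, as for the values below), Schwann cells 159 ± 7.14 and immune cells 138 ± 62.05, with the libraries of Schwann and immune cells overlapping. Endothelial cells kept the smallest part of any class, with 11.7, 11.3 and 3.97 CPM at P60 or 0.807% of the P1 mean, and there H19 fell by 6.92 ± 0.29 on the log2 scale (SE, adjusted p = 1.45e-08). Among the layers at P1, H19 stood at 4921 ± 19.3 CPM in epineurial fibroblasts, 2313 ± 15.4 in perineurial cells and 2191 ± 60.98 in endoneurial fibroblasts. The epineurial excess over endoneurial fibroblasts was 1.28 ± 0.02 on the log2 scale (SE, adjusted p = 8.00e-28), the largest of the 10 genes with the epineurial layer above. Perineurial and endoneurial cells differed by 0.04 ± 0.02 (adjusted p = 0.156), which did not pass, but passed without TMM scaling (0.08, adjusted p = 0.00697) and with the other clustering seed (0.06, adjusted p = 0.0402). At P60 the layers were no longer ordered beyond their spread, at 124 ± 50.5 CPM in epineurial, 181 ± 42.7 in perineurial and 119 ± 20.7 in endoneurial cells.

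Meg3, the noncoding RNA of the Dlk1 domain, was high in P1 fibroblasts and mural cells, and it remained in the adult in endoneurial and epineurial fibroblasts, pericyte-like mural cells and Schwann cells. Fibroblasts held 6628, 7339 and 7208 CPM at P1 and 988, 843 and 911 at P60, and Meg3 fell by 2.94 ± 0.10 on the log2 scale (SE, adjusted p = 7.17e-08). Mural cells held 3511, 3443 and 4198 CPM at P1, 52.7% of the fibroblast mean, and 911, 1256 and 514 at P60. By P60 the fibroblast and mural libraries overlapped, as did mural cells and Schwann cells with 656, 691 and 666 CPM. The P60 mural cells were of 2 clusters. The cluster with the pericyte genes Rgs5 and Kcnj8 held 2038 ± 204 CPM and the cluster with the smooth muscle genes Myh11 and Pln held 286 ± 125, with every library of the first above every library of the second. The loss was most uneven among the layers. Perineurial cells went from 5730.2 ± 238 to 163 ± 25.2 CPM, keeping 2.85%, whereas epineurial fibroblasts went from 9919.6 ± 389 to 1243 ± 10.8 (12.5%) and endoneurial fibroblasts from 5942 ± 356 to 2416 ± 53.01 (40.7%). At P1, endoneurial and perineurial libraries overlapped, and at P60 the 3 layers did not. The test of the difference in age change between layers, added after the data were seen, gave an adjusted p of 2.64e-36 for Meg3, among the smallest of the 10 genes. In Schwann cells Meg3 fell by 0.82 ± 0.13 (adjusted p = 0.000293), and this call was lost without cells over 10% mitochondrial counts (-0.34, adjusted p = 0.0532). Rian, the next noncoding RNA of the same domain, had the pattern most like that of Meg3 among 5855 genes (Pearson r = 0.957 over 30 points, 5 classes in 6 libraries, which share libraries and depth).

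Cdkn1c, which holds cells out of the division cycle, was the only gene of the 10 whose P1 Schwann and fibroblast libraries overlapped. Fibroblasts held 1862, 1991 and 1989 CPM and Schwann cells 1649, 2053 and 1804. Schwann cells thus stood at 94.2% of the fibroblast mean, where the highest single fibroblast marker stood at 29.9%. The Schwann level differed widely among the 4 of 5 P1 Schwann clusters reported here. The cells marked by Pou3f1 and Dhh, genes of Schwann cells about to myelinate, held 4389 ± 449 CPM, while those with Ednrb and Rxrg held 1199.9 ± 165 and the dividing cells 607 ± 35.04. A further cluster with Prx and a median of 21.8% mitochondrial counts held 901 ± 157 CPM. The fibroblast marker sum in the Pou3f1 cluster was 10.3% of that of fibroblasts, lower than in the Ednrb cluster (20.9%). At P60 Schwann cells held 371, 129.7 and 107 CPM, all below the P1 libraries, and Cdkn1c fell by 3.29 ± 0.33 on the log2 scale (SE, adjusted p = 5.56e-06), leaving 11.04%. In fibroblasts it fell by 1.96 ± 0.10 on the log2 scale (SE, adjusted p = 5.58e-07), with 442, 551 and 499 CPM at P60. In the adult the gene was highest in the perineurium. Perineurial cells held 1943 ± 78.1 CPM at P1 and 955 ± 46.9 at P60 (49.2%), endoneurial fibroblasts 1364 ± 55.8 and 387 ± 28.1, and epineurial fibroblasts 2608 ± 123 and 192 ± 7.27 (7.38%). The order of the layers therefore changed from epineurial, perineurial, endoneurial at P1 to perineurial, endoneurial, epineurial at P60, with no overlap between neighbours at either age, and the age change differed between layers (adjusted p = 1.47e-33).

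**Figure D4:**
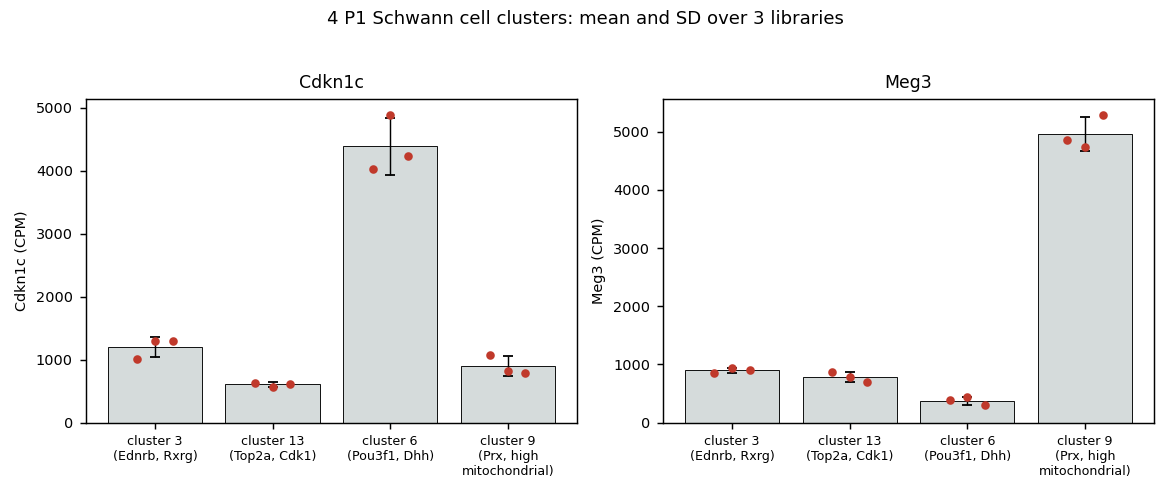
Cdkn1c (left) and Meg3 (right) in 4 of the 5 P1 Schwann cell clusters (x axis, with leading genes), in CPM on a linear y axis; bars are means, error bars the SD and points the 3 libraries. Cdkn1c peaks at 4389 CPM in the Pou3f1 cluster, and Meg3 peaks at 4961 CPM in the Prx cluster with high mitochondrial counts.

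Among the 4 clusters, that Prx cluster held the highest level of the other 9 genes, with 4961 CPM of Meg3, 1788 of Dlk1 and 586 of H19, and its fibroblast marker sum was 67.2% of that of fibroblasts. The part of fibroblast RNA in these values was not tested. Without cells over 10% mitochondrial counts, Cdkn1c still fell in Schwann cells.

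Grb10, the adaptor of growth factor receptors, had its next highest P1 level in endothelial cells and was kept in the adult to a larger part than the other maternal genes in fibroblasts, endothelial, mural and immune cells. It stood at 291, 272 and 286 CPM in P1 fibroblasts and 201, 214 and 193 in P1 endothelial cells, 71.6% of the fibroblast mean. Mural cells held 109.9 ± 11.2 CPM, Schwann cells 73.8 ± 5.68 and immune cells 19.1 ± 4.19, and no neighbours in this order overlapped. At P60 fibroblasts held 117, 105 and 131 CPM and endothelial cells 109.9, 91.3 and 98.3, and these libraries overlapped. Grb10 fell by 1.26 ± 0.10 on the log2 scale (SE, adjusted p = 7.13e-06) in fibroblasts and by 1.01 ± 0.12 in endothelial cells (adjusted p = 3.51e-05). In immune cells its change of -0.60 ± 0.23 (SE, adjusted p = 0.0610) did not pass the test, but did without cells of 10 or more Dcn UMIs (-1.23, adjusted p = 0.0220), without TMM scaling (adjusted p = 0.0421) and with no filter on low counts (adjusted p = 0.0398). The layers parted after birth. At P1 they held 332 ± 14.3 CPM (epineurial), 264 ± 9.86 (endoneurial) and 249.6 ± 13.9 (perineurial), with the last pair overlapping, and at P60 181 ± 22.8, 83.3 ± 21.3 and 32.5 ± 1.57, with no overlap. Perineurial cells kept 13.003% and epineurial fibroblasts 54.7%, and the difference between layers had an adjusted p of 3.15e-22. Ghr, the growth hormone receptor gene, was the gene whose pattern over the 30 points was most like that of Grb10 (r = 0.957).

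Zim1, the zinc-finger gene beside Peg3, was a gene of P1 fibroblasts. These held 71.1, 75.5 and 81.8 CPM at P1 and 2.16, 2.62 and 5.64 at P60, and Zim1 fell by 4.5 ± 0.27 on the log2 scale (SE, adjusted p = 1.17e-06). In each other class the P1 mean was between 5.805 and 8.86 CPM, 7.63% to 11.6% of the fibroblast mean, and neighbouring classes overlapped. The fibroblast marker sum stood at 5.58% to 21.2% in the same classes, and its part in these Zim1 values was not tested. Few UMIs were left outside fibroblasts at P60. The P1 to P60 ratio of pooled CPM was 5.52 (95% exact counting interval 1.51 to 45.9) in Schwann cells, 21.0 (3.36 to 871) in mural cells and 35.4 (6.05 to 1426) in immune cells. The call in Schwann cells (adjusted p = 0.0454) was lost without P60 replicate 1 (adjusted p = 0.115) or replicate 3 (adjusted p = 0.170). The 2 P60 UMIs of Schwann cells and the 1 of mural cells all came from P60 replicate 2, so that without it neither class held any, and the P1 Schwann level was 8.86 CPM with all cells, 4.39 without cells over 10% mitochondrial counts and 4.3017 with the other clustering seed. By layer, P1 epineurial fibroblasts held 96.6 ± 5.19 CPM, endoneurial fibroblasts 85.8 ± 5.93 and perineurial cells 31.1 ± 4.63. Perineurial cells lay 1.5 ± 0.10 below endoneurial fibroblasts on the log2 scale (adjusted p = 1.01e-18), the largest layer difference of that comparison among the 10 genes. With a normalization total of 100000, which put the perineurial level of Zim1 at 50.3 CPM, this difference was -0.81 and that of Peg3 -0.79. At P60 the 3 layers stood at 4.15 ± 2.604, 2.71 ± 2.301 and 2.79 ± 1.55 CPM (epineurial, endoneurial and perineurial), and neighbours overlapped. Zim1 was the only member whose age change was not shown to differ between classes (adjusted p = 0.442). The genes most like it were Hhip (r = 0.980), which encodes a Hedgehog-binding protein, and Nrk (r = 0.973).

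Dlk1, the paternal partner of Meg3 and an inhibitor of fat cell formation, showed the deepest fall of the 10 genes in fibroblasts. The P1 libraries held 7031, 7301 and 7078 CPM in fibroblasts and the P60 libraries 15.6, 12.4 and 11.96, and Dlk1 fell by 9.05 ± 0.16 on the log2 scale (SE, adjusted p = 1.04e-08). The adult fibroblasts thus kept 0.187% of the P1 level, where the 3 P60 libraries all lay below every P1 library. P1 mural cells held 1269, 988 and 1296 CPM, 16.6% of the fibroblast mean (the highest single fibroblast marker there stood at 15.1%). At P60, by contrast, mural cells held 29.4, 47.5 and 20.4 CPM, all above the fibroblast libraries, and the mural mean was 243% of the fibroblast mean. Within the adult mural cells, the Rgs5 and Kcnj8 cluster held 87.3 ± 6.95 CPM and the Myh11 and Pln cluster 4.54 ± 5.36. P1 Schwann cells stood at 318 ± 13.2 CPM, immune cells at 292 ± 105 and endothelial cells at 264 ± 72.8, with neighbours overlapping. Without cells of 10 or more Dcn UMIs these levels were 174, 102 and 121 CPM, and the Schwann level was 181 with the other clustering seed and 546 with a normalization total of 100000. In Schwann cells few P60 UMIs remained, and the P1 to P60 ratio was 131 (95% exact counting interval 44.7 to 634), an interval that covers counting error only; in the test Dlk1 fell there by 7.07, and by 6.44 to 7.62 on the log2 scale under these and the other settings with all libraries. Among adult fibroblasts Dlk1 was highest in the endoneurium. Endoneurial fibroblasts went from 5929.9 ± 169 CPM at P1 to 148 ± 23.2 at P60 (2.49%), epineurial fibroblasts from 10379.5 ± 89.9 to 4.42 ± 1.34 (0.0426%) and perineurial cells from 4056 ± 95.3 to 1.65 ± 0.637 (0.0406%). No P60 layers overlapped, and the age change differed between layers (adjusted p = 1.07e-32). At P1 the epineurial level was the highest, 0.92 ± 0.02 above the endoneurial one on the log2 scale (SE, adjusted p = 2.25e-25). Fbn2 (r = 0.970), a fibrillin gene of developing tissue, Agtr2 and Igfbp2 were the genes most like Dlk1 over the 30 points.

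Mest, host of miR-335, had 2 sites of P1 expression, fibroblasts and endothelial cells. Fibroblasts held 2004, 2034 and 1934 CPM and endothelial cells 1304, 1162 and 1094, 59.6% of the fibroblast mean and the highest such share of any paternal gene in a P1 class. The other classes lay far lower, at 143 ± 13.6 CPM in Schwann, 114 ± 31.9 in mural and 73.9 ± 20.9 in immune cells. At P60 the fibroblasts held 41.4, 32.3 and 26.03 CPM and the endothelial cells 7.58, 7.796 and 6.104. Mest fell by 5.89 ± 0.19 on the log2 scale (SE, adjusted p = 5.70e-08) in fibroblasts and by 7.34 ± 0.17 in endothelial cells (adjusted p = 2.06e-10). Endothelial cells kept 0.603% of their P1 level and fibroblasts 1.67%, and in mural cells the P1 to P60 ratio was 184 (95% exact counting interval 50.7 to 1528). The P1 mural level, 5.73% of that of fibroblasts, lay below the mural share of the fibroblast marker sum (7.30% to 10.6%) and was 61.5 CPM without cells of 10 or more Dcn UMIs. Among the P1 layers the spread was narrow, from 2277 ± 68.1 CPM in epineurial and 1986 ± 47.03 in endoneurial fibroblasts to 1585 ± 57.4 in perineurial cells, yet no neighbours overlapped. The epineurial lead came from 1 of the 2 epineurial clusters, that led by Sfrp4 and Agtr2, with 2607 ± 32.7 CPM, while that led by Dpt and Pi16 held 1950.4 ± 105. With imprinted genes kept in the clustering, the cluster with Sfrp4 and Agtr2 took no layer name, and epineurial fibroblasts held 2037 ± 81.3 CPM and endoneurial fibroblasts 1984 ± 46.3. At P60 endoneurial fibroblasts were the highest at 86.01 ± 22.7 CPM, and epineurial fibroblasts (34.9 ± 7.503) overlapped with perineurial cells (21.5 ± 5.402). The 2 adult epineurial clusters differed, with 54.98 ± 4.76 CPM where Cxcl14 and Sfrp4 led and 13.7 ± 4.67 where Pi16 led. Plagl1 (r = 0.975) and H19 (r = 0.949), both members of this group, were the genes most like Mest over the 30 points.

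Peg3 was, like its neighbour Zim1, a gene of P1 fibroblasts, and it was the only member highest in the endoneurium at P1. Fibroblasts held 631, 628 and 659 CPM at P1 and 38.1, 35.6 and 87.1 at P60; the highest P60 value was that of replicate 3, the library that stood apart. All P60 values lay below those of P1, and Peg3 fell by 3.59 ± 0.31 on the log2 scale (SE, adjusted p = 1.05e-05). Every other P1 class stood between 40.9 and 72.2 CPM, at most 11.3% of the fibroblast mean, with neighbours overlapping. P1 endoneurial fibroblasts held 820.4 ± 26.8 CPM, epineurial fibroblasts 648 ± 11.4 and perineurial cells 393 ± 7.99. The epineurial level was 0.23 ± 0.03 below the endoneurial one on the log2 scale (adjusted p = 3.02e-08), the reverse of the other 9 genes. At P60 the layers stood at 64.05 ± 22.8, 64.8 ± 38.7 and 36.5 ± 17.4 CPM and overlapped. They had lost similar parts of the P1 level, with 7.81% to 9.99% remaining, and Peg3 was the only member whose age change was not shown to differ between layers (adjusted p = 0.118; 0.00440 without P60 replicate 2 and 0.00737 with a normalization total of 100000, a setting in which Zim1 lost this call with 0.237). In Schwann cells Peg3 held 60.4, 62.7 and 71.5 CPM at P1 and 21.5, 25.9 and 47.3 at P60 and fell by 1.03 ± 0.24 (adjusted p = 0.00368), a call that was lost when cells holding at least 10 UMIs of Dcn were dropped (-0.79, adjusted p = 0.135). With the other clustering seed the levels were 36.6 CPM at P1 and 36.02 at P60, a change of -0.03 (adjusted p = 0.951). Kdelr2 (r = 0.944), Plagl1 and the collagen gene Col1a1 were the genes most like it.

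Plagl1, a zinc-finger transcription factor known to act on other imprinted genes, followed fibroblasts first and endothelial cells second. The P1 fibroblast libraries held 492, 529 and 547 CPM and those of P60 21.8, 26.5 and 31.9, without overlap, and Plagl1 fell by 4.29 ± 0.14 on the log2 scale (SE, adjusted p = 6.32e-08). P1 endothelial cells held 166, 143 and 166 CPM, 30.3% of the fibroblast mean, and kept 2.05% of it at P60, where Plagl1 fell by 5.57 ± 0.25 (adjusted p = 2.11e-08). Schwann cells (46.1 ± 4.69 CPM), mural cells (36.9 ± 4.76) and immune cells (34.96 ± 9.44) were low at P1 and overlapped as neighbours. By layer the P1 order was epineurial (745 ± 34.1 CPM), endoneurial (460.2 ± 27.4) and perineurial (324 ± 15.2), and the P60 order endoneurial (50.01 ± 13.02), epineurial (30.2 ± 5.6998) and perineurial (17.6 ± 3.38), with no overlap between neighbours at either age. Epineurial fibroblasts kept 4.06% and endoneurial fibroblasts 10.9%, and the difference between layers had an adjusted p of 4.51e-11. The 2 P1 epineurial clusters held 834 ± 38.4 CPM (led by Dpt and Pi16) and 654 ± 29.3 (led by Sfrp4 and Agtr2), the same direction as H19 with 5748 and 4087 and the reverse of Mest with 1950.4 and 2607. The genes most like Plagl1 were Mest (r = 0.975), H19 and Peg3.

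Ndn, whose product necdin is known as a brake on division in nerve cells, was the member of which the largest part was kept in each of the 5 classes with all libraries and cells. Without cells of 10 or more Dcn UMIs, Peg3 was kept to a larger part in Schwann cells (52.3% against 51.8% for Ndn), as was Grb10 in endothelial cells without P60 replicate 2 (51.4%) and in immune cells without P60 replicate 1 (64.8%). Fibroblasts held 398, 409 and 398 CPM at P1 and 226, 213 and 152 at P60, where replicate 3 was the lowest, and Ndn fell by 1.02 ± 0.15 on the log2 scale (SE, adjusted p = 0.000388). P1 mural cells held 185, 172 and 197 CPM and Schwann cells 110.3, 123 and 112, 46.03% and 28.6% of the fibroblast mean. At P60 they held 131, 140.2 and 65.7 and 123, 141 and 41.1, so the Schwann libraries of the ages overlapped. The change in Schwann cells was -0.28 ± 0.27 (SE, adjusted p = 0.449), in immune cells -0.42 ± 0.30 (SE, adjusted p = 0.286) and in endoneurial fibroblasts -0.33 ± 0.16 (SE, adjusted p = 0.101), and none of these passed the test. Without P60 replicate 1 the endoneurial change was -0.52 and did pass (adjusted p = 0.0220). Without P60 replicate 3 the Schwann value turned to 0.11 (adjusted p = 0.605). Without cells of 10 or more Dcn UMIs the Schwann levels were 108 CPM at P1 and 55.8 at P60, and Ndn passed the test with -1.13 (adjusted p = 0.00256). In mural cells Ndn fell by 0.65 ± 0.21 (adjusted p = 0.0371), a call lost without any of the P1 replicates 1, 2 and 3 (adjusted p = 0.0989, 0.0810 and 0.120), and also without cells of 10 or more Dcn UMIs (0.0533) or the highest Scrublet scores (0.0501). Ndn did fall in epineurial fibroblasts, from 524 ± 4.31 to 229 ± 37.6 CPM, and in perineurial cells, from 346 ± 8.92 to 141 ± 36.8, while endoneurial fibroblasts went from 326 ± 7.05 to 242 ± 54.7 (74.4%). The epineurial fall was 1.21 ± 0.13 on the log2 scale (adjusted p = 3.90e-05), and the perineurial one 1.27 ± 0.17 (adjusted p = 4.67e-05). Layers at P1 had shown the same epineurial lead as most members, 0.80 ± 0.03 over endoneurial fibroblasts (SE, adjusted p = 3.35e-18), whereas perineurial cells and endoneurial fibroblasts differed by 0.05 ± 0.04 (adjusted p = 0.333). Efemp2, a fibulin gene of elastic fibres, was most like Ndn over the 30 points (r = 0.969).

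Set side by side as the part of the P1 level left at P60, the median member kept 6.75% in fibroblasts and 9.15% in endothelial cells. It kept 9.52% in mural cells, 11.9% in immune cells and 16.4% in Schwann cells. The fibroblast marker sum in P60 Schwann cells was 17.5% to 34.1% of that of fibroblasts. In P1 immune cells 0 of the 10 genes stood above the highest fibroblast marker, each as a share of its fibroblast level. The part of fibroblast RNA in the Schwann and immune values was not tested. The median of the 5 maternal genes was above that of the 5 paternal genes in every class and layer with all libraries and cells. In fibroblasts these medians were 12.95% and 5.12%, in endothelial cells 13.8% and 2.05%, and in mural cells 24.04% and 3.896%. In Schwann cells they lay close, at 17.7% and 15.1%. The maternal value there was that of Zim1, whose 2 P60 UMIs all came from P60 replicate 2. The order turned in Schwann cells without cells of 10 or more Dcn UMIs (10.8% and 18.4%). It also turned without the highest Scrublet scores (16.3% and 22.6%) and without P60 replicate 2 (14.4% and 20.04%). Within the layers the gap was widest in endoneurial fibroblasts, 28.4% against 7.81%, and narrower in epineurial fibroblasts (7.38% and 4.06%) and perineurial cells (8.98% and 5.45%). These are descriptions of 5 genes each, and the ranges crossed: the paternal Ndn kept 49.0% to 88.5% over the classes, and the maternal H19 0.807% to 15.1%.

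**Figure D5:**
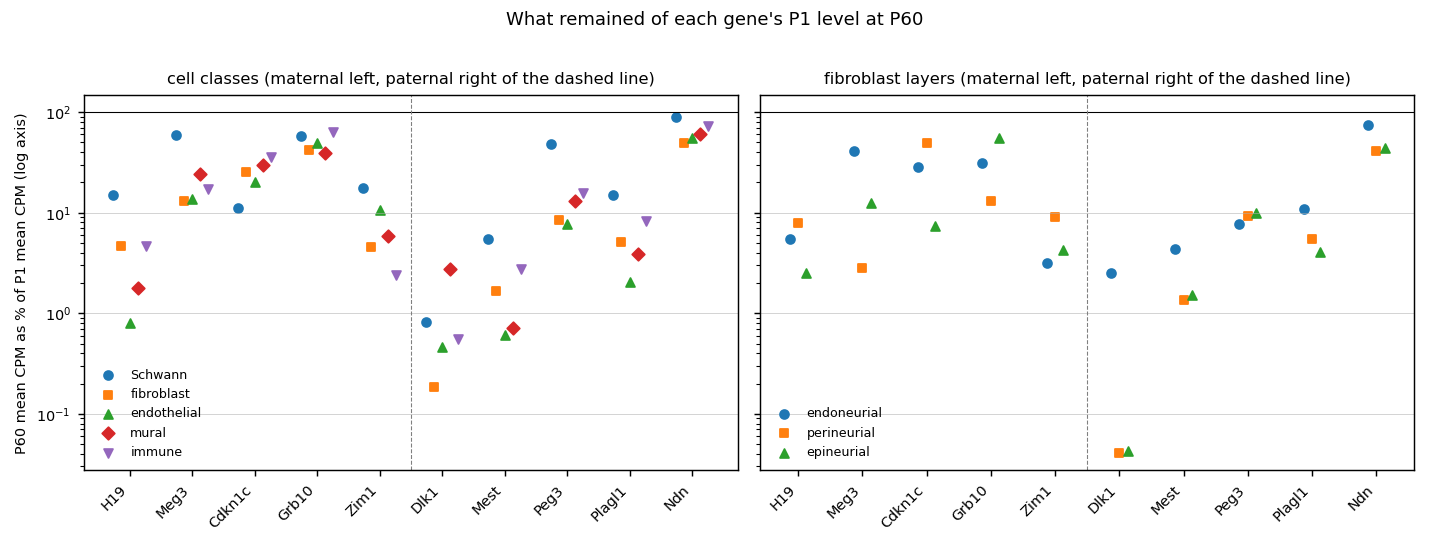
P60 mean CPM as a percentage of the P1 mean CPM (log axis) for each gene, in the 5 classes (left) and the 3 fibroblast layers (right), maternal genes left and paternal genes right of the dashed line. Dlk1 lies lowest, down to 0.0406% in perineurial cells, and Ndn and Grb10 lie near the top in most classes.

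The neighbouring pairs were compared by the values of each gene. In the Dlk1 and Meg3 domain, both genes were highest in P1 epineurial fibroblasts and both were highest in endoneurial fibroblasts among the layers at P60, but fibroblasts kept 12.95% of Meg3 and 0.187% of Dlk1. Mural cells kept 24.04% of Meg3 and 2.74% of Dlk1, both with the higher adult level in the Rgs5 and Kcnj8 cluster. P1 mural cells were not split into clusters. The adult ones were 282 in the Rgs5 and Kcnj8 cluster and 567 in the Myh11 and Pln cluster. The parts kept depend on this mix. In the Zim1 and Peg3 pair, both were lowest in perineurial cells among the P1 layers, and fibroblasts kept 4.56% of Zim1 and 8.39% of Peg3. Their levels over the 30 points had r = 0.926, against 0.805 for Dlk1 and Meg3 and 0.767 for H19 and Cdkn1c. Members on different chromosomes reached higher values, such as Mest and Plagl1 with 0.975, so these values do not set neighbours apart. H19 and Cdkn1c parted more: epineurial fibroblasts led at P1 for both, whereas at P60 perineurial cells kept 49.2% of Cdkn1c and 7.82% of H19. The age change differed between the 5 classes for 9 of the 10 genes (all genes 58.9%) and between the 3 layers for 9 of 10 (all genes 51.2%). Between classes, the calls of Grb10 and Ndn were lost without P60 replicate 1 (adjusted p = 0.1002 and 0.0650) or replicate 2 (0.411 and 0.224), and that of Grb10 also without P1 replicate 1 (0.141) and under 4 other settings (0.123 to 0.151).

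The same loss was seen in the share of cells with at least 1 UMI, after every cell was thinned to 1500 UMIs. The median fibroblast had UMIs of 7 of the 10 genes at P1 and of 1 at P60. Dlk1 was found in 99.2% of epineurial fibroblasts at P1 and 0.524% at P60, and in 99.1% and 12.9% of endoneurial fibroblasts. Immune cells, the class with the least of these genes, gave 16.2% at P1 and 0.116% at P60. Whether these immune shares are background was not tested. Before thinning, the median immune cell had 6813 UMIs at P1 and 3723 at P60, and the median epineurial fibroblast 6270.5 and 5198. Meg3 remained in 87.99% of adult endoneurial fibroblasts, as against 99.5% at P1, and in 14.6% of adult perineurial cells, as against 98.3%. The immune shares of Meg3 were 14.1% at P1 and 5.6004% at P60. Cdkn1c was found in 89.8% of perineurial cells at P1 and 61.6% at P60. Without thinning, the Dlk1 shares of epineurial fibroblasts were 99.7% and 1.47%.

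A list of 38 other imprinted genes served for comparison. In fibroblasts 31 of them passed the filter, of which 18 fell and 5 rose, with a median change of -0.99 on the log2 scale. Near the members, and named after their values were seen, Magel2 (-7.94, adjusted p = 4.79e-07), a MAGE gene of the Ndn region, Igf2 (-7.05, adjusted p = 4.77e-08), the growth factor gene beside H19, Rtl1 (-6.00, adjusted p = 1.51e-05) of the Dlk1 domain and Usp29 (-5.91, adjusted p = 6.57e-08) of the Peg3 cluster all fell. Those that rose, also named after their values were seen, are Slc22a18 (1.84), Zrsr1 (1.5), Peg13 (1.48), Inpp5f (0.99) and Sgce (0.67). Where the genes that rose lie relative to the members was not compared. The fallen genes named above therefore do not stand for all imprinted neighbours of the members. More of them fell than rose in endothelial cells as well, 13 and 2 of 23 tested, and in mural cells, 8 and 2 of 16, whereas 6 fell and 6 rose of 22 in Schwann cells and 3 and 5 of 15 in immune cells.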

How the data were processed

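For each of the 6 libraries the authors deposited raw UMI counts per gene and barcode, made with Cell Ranger 2.0.2 on GRCm38.p5 per the submitters' processing notes (the study's methods name a human build), with no normalization and no pooling. The strand setting of the counting is not given in the sources used here. The members and the lists of markers and of other imprinted genes were chosen with earlier results of these data known. The rule for named genes was to name all 10 members in every class, and for each member the 3 genes with the highest Pearson correlation of log2(CPM + 10) over the 30 library and class means, among genes with at least 50 CPM in a class.

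Barcodes with 500 to 5000 genes were kept. Cells of each age were clustered with R 4.3.3 and Seurat 5.3.0 (total 10000, 10 principal components, 30 neighbours, resolution 0.5 at P1 and 0.4 at P60), with imprinted genes taken out of the variable genes (11 at P1 and 9 at P60). A name needed 3 markers of its class at 2 times their level elsewhere (10 CPM added), and a layer a lead of 2 markers; 1 adult cluster that mixed endothelial with mural markers was split again at resolution 0.3. Doublets were limited only by the cap of 5000 genes; leaving out the highest Scrublet scores (scanpy 1.11.5, 0.8% per 1000 cells) was an alternative. Counts were summed per library and class and tested with edgeR 4.0.16 (TMM scaling, filterByExpr, quasi-likelihood F test, two-sided), and fold changes are those of this fit; DESeq2 1.42.0 was an alternative. Levels in 1 P1 Schwann cluster and in single P60 perineurial clusters are not reported here. The scripts were checked on simulated counts. CPM is per 1000000 UMIs of the class in a library, and ± is the SD over 3 libraries unless an SE is named. P-values of the age tests within a class or layer measure the spread between libraries, and counting intervals (95%) cover counting error only. Tests between classes or between layers compare sums taken from the same libraries, so their p-values do not describe separate samples. Between the ages, same-numbered replicates did not deviate together, so the numbers were not taken as pairs. The other settings tried were no TMM scaling, no filter on low counts, cells under 10% mitochondrial counts, no cells with 10 or more Dcn UMIs outside fibroblasts, imprinted genes kept in clustering, a total of 100000, random seed 2, a replicate block and leaving out each library.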

Additional observations from a re-analysis of the deposited data

Results flagged for a closer look

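The age change differed between the 5 cell classes for 9 genes by the test of the difference itself. The adjusted p-values of edgeR's quasi-likelihood test were 5.76e-08 (H19), 2.03e-09 (Meg3), 1.51e-05 (Cdkn1c), 0.0332 (Grb10), 1.22e-08 (Dlk1), 0.000181 (Mest), 1.89e-07 (Peg3), 0.000919 (Plagl1) and 0.00403 (Ndn). Between the 3 fibroblast layers the age change differed for 9 genes, in a test added after the data were seen, with adjusted p-values of 4.64e-18 (H19), 2.64e-36 (Meg3), 1.47e-33 (Cdkn1c), 3.15e-22 (Grb10), 0.00555 (Zim1), 1.07e-32 (Dlk1), 1.34e-14 (Mest), 4.51e-11 (Plagl1) and 4.15e-11 (Ndn). Over all genes tested, 58.9% were called between classes and 51.2% between layers. The classes and layers compared come from the same libraries, so these p-values do not describe separate samples. Between classes, the calls of Grb10 and Ndn were lost without P60 replicate 1 or 2, and that of Grb10 without P1 replicate 1.

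A P1 cluster of 697 cells that took no class name, with a median of 19.8% mitochondrial counts and a fibroblast marker sum at 176% of that of fibroblasts, lay outside every comparison. Its level was above that of every named class and layer for 4 genes, with 14315 ± 1072 CPM of Meg3 (SD, n = 3 libraries), 373 ± 23.4 of Grb10, 148 ± 23.5 of Zim1 and 899 ± 24.7 of Peg3. The 6 others stood at 733 ± 29.5 CPM (Plagl1), 4067 ± 201 (Dlk1), 1028 ± 16.4 (H19), 760.0 ± 81.7 (Mest), 654 ± 38.96 (Cdkn1c) and 214 ± 23.2 (Ndn). The part of RNA quality in these levels was not tested.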

How the results depend on the processing

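Each of the 170 alternative counts of called members stayed within 1.5 times its main count. Of 2023 alternative values of single genes, 1971 kept direction and side of the threshold, 34 lost the call, 14 gained it and 4 turned. Those 4 were Meg3 (0.19) and Grb10 (0.056) between perineurial and endoneurial cells with a total of 100000, Ndn in immune cells without the highest Scrublet scores (0.20, adjusted p = 0.718) and Ndn in Schwann cells without P60 replicate 3 (0.11, the highest of -0.78 to 0.11 when each library was left out); the cause was not tested. Leaving out each library in turn gave 8 to 9 called genes in Schwann cells, 10 in fibroblasts, 9 to 10 in endothelial cells, 8 to 9 in mural cells, 8 in immune cells, 9 to 10 in endoneurial fibroblasts, 10 in epineurial fibroblasts and 10 in perineurial cells, 7 to 9 for the difference between classes, 10 between P1 layers and 9 to 10 for the added test between layers. With DESeq2 the Zim1 difference between epineurial and endoneurial fibroblasts lost its call (0.28, adjusted p = 0.0539). Over all genes, DESeq2 called 4281 in place of 7072 between epineurial and endoneurial fibroblasts, 2934 in place of 5346 between epineurial and perineurial cells, and 2433 in place of 4703 between perineurial and endoneurial cells. In Schwann cells 4702 genes were called with all libraries and 2958, 2823 and 2897 without P1 replicate 1, 2 or 3. Without TMM scaling, genes higher and lower in epineurial than perineurial cells went from 2682 and 2664 to 1890 and 3903, with the median of all genes at -0.15 on the log2 scale, and the 10 members were still higher. Levels moved by more than 1 SD in 131 of 1440 alternatives and shares of cells in 260 of 320. At P60 few UMIs limit Zim1, Dlk1 and Mest outside fibroblasts.

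Between the ages, same-numbered libraries had correlations of their deviations of 0.0271, 0.0942 and 0.0388, which do not pair them. With the replicate number as a block, the calls numbered 10 for fibroblasts, 9 for Schwann, endothelial and mural cells and 8 for immune cells, with 9 for the endoneurial layer and 10 for both other layers, as without the block.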

Other observations

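The P1 fibroblasts in division (604 cells led by Birc5 and Cks2, with no layer name) were below the mean of all P1 fibroblasts for each of the 10 genes, with 1983 ± 69.8 CPM of H19 (SD, n = 3 libraries), 4042 ± 101 of Meg3, 1513 ± 49.1 of Cdkn1c, 5409 ± 103 of Dlk1 and 1801 ± 50.5 of Mest. They are part of the fibroblast class, and the difference was not tested. The P60 endothelial cells were of 2 clusters. That led by Slco1a4 and Mfsd2a, transporter genes of barrier endothelium, held 49.2 ± 5.28 CPM of Meg3 and 39.5 ± 5.44 of Cdkn1c, and that with Plvap and Mmrn1 held 121 ± 25.3 and 129.7 ± 16.8. The latter was led by Ccl21a and passed for 5 markers of lymphatic endothelium, and the fibroblast marker sum was 4.07% of that of fibroblasts in the former and 7.99% in the latter. Among P1 immune cells, the cluster with Lyve1 and Folr2 held 138 ± 44.3 CPM of Dlk1 and 211 ± 114 of Meg3, and the cluster with Cd74 and H2-Aa 330.2 ± 128 and 520.4 ± 138. The fibroblast marker sum was 3.89% of that of fibroblasts in the former and 7.94% in the latter, and its part in these differences was not tested.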
